A study of Mus musculus with 4 samples.

Results

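The genes described here encode the proteins of the cytosolic ribosome. They were chosen by symbol: a probe set had to carry 1 gene symbol beginning with Rpl or Rps and a digit, or with Rplp, or the symbol Rpsa, with S6 kinase and pseudogene symbols left out. This gave 50 genes of 18193, each read from the probe set with the highest mean log2 signal, out of 106 probe sets that met the rule. By name 26 belong to the large subunit and 24 to the small subunit. A further 31 ribosomal protein symbols occur only on probe sets that list several genes and are not members. 3 members are not structural ribosomal proteins in spite of their symbols. Rps19bp1 encodes a protein that binds Rps19, Rpl7l1 a ribosome assembly factor, and Rps4l is annotated as a transcribed pseudogene in the RefSeq gene table.

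The study compared IL-17-producing helper T cells of different origin, on 1 Affymetrix array per population and with no replicates. The cells of all 4 populations were taken from C57BL/6 mice aged 8 to 10 weeks (lymph nodes and spleen), cultured, and sorted on IL-17 (GFP) and Foxp3 (APC). Th0 and Th17 were grown from naive CD4+ T cells, under Th0 or Th17 conditions. The exFoxp3Th17 and Treg populations began as CD4+ T cells that were already Foxp3+, and were given Th17 conditions or IL-2. Th17 and exFoxp3Th17 cells were sorted as IL-17 positive and Foxp3 negative, Th0 cells as negative for both, and Treg cells as Foxp3 positive and IL-17 negative. The labels used here give neither the number of animals nor the length of the cultures. Each comparison sets 1 array against 1 other, with no test and no spread between samples, and fewer cells of a kind cannot be told apart from less RNA per cell.

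A ribosome joins a small subunit, which reads the messenger RNA, to a large subunit, which forms the peptide bonds. Each of its proteins is encoded by its own gene or pair of genes and is needed in nearly equal amounts, and these messengers are among the most abundant in dividing cells. Most begin with a tract of pyrimidines at the cap, the 5' terminal oligopyrimidine or TOP motif, through which the kinase mTOR and the RNA-binding protein Larp1 set their translation in activated T cells.

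The start sites of the genes were read from RefSeq promoter sequences of build GRCm38.p6, which cover 44 of the 50 members. The windows below show members with and without a pyrimidine run at the start, and hold more with a run than the members as a whole do. Each runs 12 bases before and 18 bases from the annotated start base, 5' to 3' on the gene's strand. Capitals mark a run of at least 6 bases, all C or T, that reaches within 5 bases of the start.

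Rpl38: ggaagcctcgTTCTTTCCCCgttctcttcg

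Rps18: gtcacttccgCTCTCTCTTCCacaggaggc

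Rps6: cggaagtcgggCCTCTTTTTCgtgacgcct

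Rplp2: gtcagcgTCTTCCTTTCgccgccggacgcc

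Rpl27a: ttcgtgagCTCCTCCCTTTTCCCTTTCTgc

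Rpl22l1: cggcgcaagcccgTTCTCTTCCCacggctg

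Rps27l: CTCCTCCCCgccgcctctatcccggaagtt

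Rps3: gcaagggtcgccgcgctgcgcggcgtcatt

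Rpl11: acccataaggccacggggccggaagtctcc

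Rps7: tccggtttccacccacctacttccgctgtc

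Rpl39: aagctccgcctctagcgacttcttctaatc

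These windows lie at chr11:114668568-114668597 (plus strand) for Rpl38, chr17:33955648-33955677 (minus) for Rps18 and chr4:86857350-86857379 (minus) for Rps6. For Rplp2 and Rpl27a they are chr7:141447639-141447668 and chr7:109519183-109519212, both on the plus strand. Rpl22l1 is at chr3:28805496-28805525 (plus), Rps27l at chr9:66946074-66946103 (plus; the upstream of its annotated starts) and Rps3 at chr7:99483692-99483721 (minus). Rpl11 is at chr4:136053376-136053405, Rps7 at chr12:28635936-28635965 and Rpl39 at chrX:37085205-37085234, all on the minus strand. In Rpl38, Rps18, Rps6, Rplp2 and Rpl27a the run covers the annotated start, in Rpl22l1 it begins 1 base after it, and in Rps27l it ends before it. The windows of Rps3, Rpl11, Rps7 and Rpl39 hold no run that meets this rule, and the first 3 of these are bright genes. The Rpl39 window does hold a run of more than 6 pyrimidines, which begins more than 5 bases after the annotated start.

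Of the 44 members with a promoter sequence, 23 (52.3%) had a pyrimidine run at a start, against 24% of all 27025 genes in the promoter table and 24.7% of the genes above the array floor. On the other strand the run was present for 6.82% of members and 25.9% of all genes. The letters CCGGAAG, searched on both strands over the whole window of 250 bases before and 50 after the start, were found for 47.7% of members, 9.93% of all genes and 20.3% of genes above the floor. TATAAA was found for 13.6% of members, 15.7% of all genes and 8.79% of genes above the floor, and GGGCGG for 59.1% and 38.2%, below the 67.8% of genes above the floor. CTTTCC, which can lie inside the pyrimidine run, was found for 52.3% and 29.3%, and AAGATGG for 18.2% and 7.28%. These are matches of letters only, and 7 members with several annotated starts were counted if any start matched.

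Signals are MAS5 intensities on a linear scale, and levels of different probe sets cannot be set against each other as transcript amounts. The floor was a signal of 12.1, the median of all probe sets other than controls over the 4 arrays. 48 of the 50 members lay above it on at least 1 array. Rpl3l, a muscle paralog of Rpl3, had signals of 8.96 (Th0), 0.650 (Th17), 0.640 (exFoxp3Th17) and 0.839 (Treg), and the only single-gene probe set of Rps16 lay between 0.185 and 3.65. Both were below the floor throughout.

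The measured members fell into a bright block and a dim tail. 36 genes, 18 of each subunit, had a mean log2 signal of 11 or more (a signal of 2048), a line drawn after the values were seen. Their signals ran from 2656 to 8814 in Th0 (median 6659), from 2767 to 8015 in Th17 (median 5513), from 2112 to 8935 in exFoxp3Th17 (median 6759) and from 2809 to 7599 in Treg (median 5547). Of the 100 brightest probe sets on each array, 83 (Th0), 81 (Th17), 80 (exFoxp3Th17) and 83 (Treg) carried a ribosomal protein symbol, alone or among others. The 216 probe sets with such a symbol held 12.4% (Th0), 10.9% (Th17), 12.5% (exFoxp3Th17) and 10.7% (Treg) of the summed signal.

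**Figure D1:**
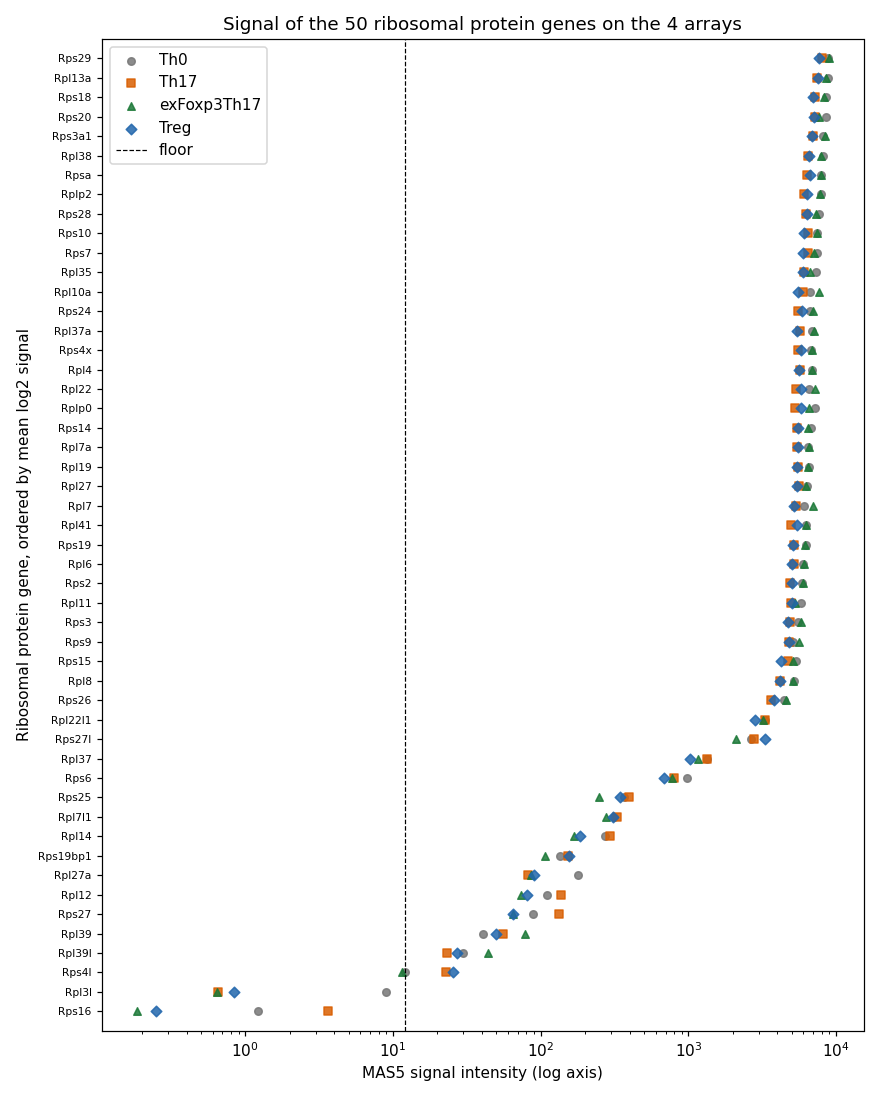
Each row is 1 of the 50 genes, ordered by mean log2 signal; the log horizontal axis gives the MAS5 signal on each array, and the dashed line is the floor of 12.1. 36 genes sit together at signals of 2112 to 8935, and 12 trail down to the floor, with Rpl3l and Rps16 below it.

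The bright genes shared a small difference in the same order. In 34 of the 36, both Th0 and exFoxp3Th17 had a higher signal than both Th17 and Treg. Under quantile normalization, which makes the 4 signal distributions identical, only 7 of the 36 kept that order. Most of the top ranks are ribosomal probe sets, so this method largely removes a shift that they share, whatever its source. The order was noticed in these data, and 27 of the 36 had it with the mean of each gene's probe sets. Over all 11769 genes above the floor it held for 21.7%, and over the 323 genes with a mean log2 signal of 11 or more, members included, for 34.7%. At a mean log2 signal of 12 or more it held for 50% of 42 other genes and for all 33 members. Th0 was the highest array for 21 of the 36 genes and exFoxp3Th17 for 14; Treg was the lowest for 20 and Th17 for 15. The brightest were Rps29 (8790, 8015, 8935 and 7599 in the order Th0, Th17, exFoxp3Th17, Treg), Rpl13a (8814, 7443, 8561 and 7499), Rps18 (8593, 7155, 8290 and 6943), Rps20 and Rps3a1 (8091, 6981, 8416 and 6821). The differences were small: at the deposited scaling the median was 1.19-fold, a log2 ratio of 0.25, for exFoxp3Th17 over Th17 and a log2 ratio of -0.26 for Th17 against Th0, and the medians were 0.01 and 0.00 under quantile normalization.

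**Figure D2:**
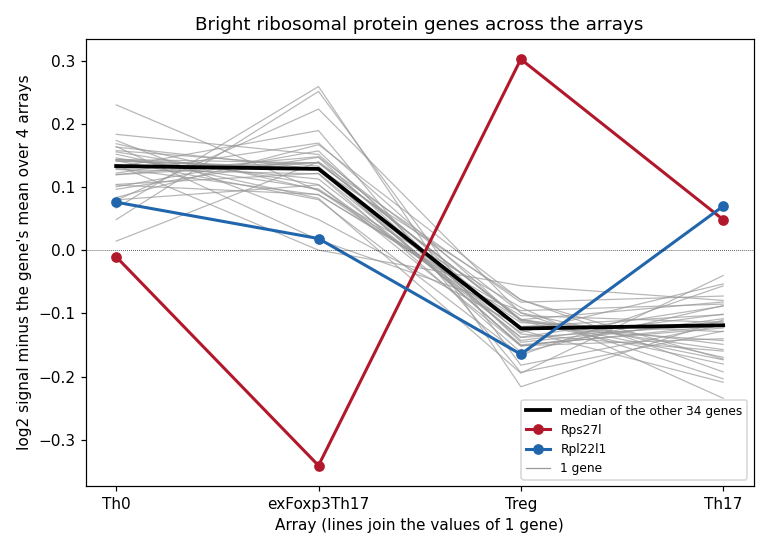
Each line is 1 of the 36 bright genes; the vertical axis is its log2 signal minus its own mean over the 4 arrays. The 34 grey lines lie above 0 in Th0 and exFoxp3Th17 and below 0 in Treg and Th17 at the deposited scaling, an order that 7 of the 36 genes kept under quantile normalization; Rps27l (red) peaks in Treg, and Rpl22l1 (blue) is lowest there.

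exFoxp3Th17 against Th17 compared cells sorted as IL-17 positive, of different origin and grown under the same named conditions. The Il17a probe set was below the floor on both arrays (9.41 and 9.81) as on Th0 (7.09) and Treg (8.18), so the array does not bear out that label. The 34 bright genes other than Rps27l and Rpl22l1 were all higher in exFoxp3Th17 at the deposited scaling, with log2 ratios of 0.08 to 0.43 and a standard deviation over genes of 0.08. The median over all 48 measured members was 0.22, against 0.03 over all genes above the floor, and was -0.0039 under quantile normalization and 0.126 with the mean of each gene's probe sets. 1 of the 48 members differed by 2-fold or more, Rps27, against 14.8% of all genes in either direction. It was lower, as were 7.27% of all genes, and no member was higher, against 7.48%. At 1.5-fold the count was 6 of 48, with Rpl39l higher and Rpl12, Rpl14, Rps25, Rps27 and Rps4l lower, against 32.9% of all genes.

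Rpl22, a large-subunit protein required for the development of alpha-beta T cells, had the highest ratio of the bright genes. Its signals were 6546 (Th0), 5381 (Th17), 7235 (exFoxp3Th17) and 5784 (Treg). The log2 ratio of exFoxp3Th17 to Th17 was 0.43 by this probe set and 0.14 by its other bright one, so the size depended on the probe set. Rpl10a, a protein of the L1 stalk through which spent tRNA leaves, had signals of 6694, 5921, 7649 and 5502 in the same order of arrays. Its log2 ratio was 0.37 against Th17 and 0.48 against Treg, the largest of the bright members in the latter comparison. Rpl7 (0.37), the stalk protein gene Rplp2 (0.36) and Rps26 (0.35) followed against Th17.

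At the lower end were Rpl11 and Rps20, both with roles beyond the ribosome in the regulation of Mdm2 and p53. Rpl11 had signals of 5764 (Th0), 4967 (Th17), 5249 (exFoxp3Th17) and 5048 (Treg), so its exFoxp3Th17 array stood only 0.08 above Th17 on the log2 scale. Rps20 had 8539, 7183, 7707 and 7131. The log2 ratio was 0.10, and its second bright probe set was at -0.01.

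For cells of naive origin, Th17 against Th0 sets the 2 cultures side by side, and the sort gate differs too. The median over the 48 members was -0.25, against -0.02 over all genes, and was 0.02 under quantile normalization and -0.160 with the mean of each gene's probe sets. Rplp0, the core of the ribosomal stalk that recruits elongation factors, had the widest gap of the bright genes, at 7247 in Th0 and 5252 in Th17 (log2 ratio -0.46). exFoxp3Th17 (6596) and Treg (5802) lay between them. Rplp2, its partner in the stalk, was at 7894 (Th0), 6013 (Th17), 7722 (exFoxp3Th17) and 6367 (Treg) (log2 ratio of Th17 to Th0 -0.39). Both stalk genes were therefore lowest in Th17 and highest in Th0. Rpl41 (-0.33), Rpsa (-0.32) and Rpl38 (-0.32) came next. Rpl27a was the only member of the 48 that differed by 2-fold or more, against 15.1% of all genes. It was lower in Th17, as were 6.88% of all genes, and no member was higher, against 8.22%. At 1.5-fold the count was 2 of 48, Rps4l higher and Rpl27a lower, against 32.6% of all genes.

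exFoxp3Th17 against Treg compared Foxp3+-derived cells after Th17 conditions with those kept on IL-2, and again changed the gate. The median over the 48 members was 0.25, against 0.02 over all genes and 0.02 for the members under quantile normalization. All 34 bright genes other than Rps27l and Rpl22l1 were higher in exFoxp3Th17 at the deposited scaling, from 0.06 for Rpl11 to 0.48 for Rpl10a. Rpl7 (0.43) and Rpl37a (0.38) came after Rpl10a. Rps4l was the 1 member of 48 past 2-fold, against 21.2% of all genes. It was lower, as were 9.94% of all genes. At 1.5-fold the count was 4 of 48, with Rpl39 and Rpl39l higher and Rps27l and Rps4l lower, against 40.8% of all genes.

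Treg against Th0 had a median of -0.25 over the 48 members, against -0.01 over all genes and -0.02 for the members under quantile normalization. The bright genes other than Rps27l and Rpl22l1 lay within a narrow band, from -0.35 for Rps15 to -0.10 for Rps9. Rps4l was again the 1 member of 48 past 2-fold, against 10.5% of all genes. It was higher in Treg, as were 5.56% of all genes, and no member was lower, against 4.95%. At 1.5-fold the count was 2 of 48, Rps4l higher and Rpl27a lower, against 25.2% of all genes. These 4 comparisons share arrays, so their values are not separate observations of the same difference.

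Large-subunit and small-subunit genes had like medians. In exFoxp3Th17 against Th17 the median log2 ratio was 0.28 over the 18 bright large-subunit genes and 0.23 over the 18 bright small-subunit genes. In Th17 against Th0 these medians were -0.26 and -0.25, in exFoxp3Th17 against Treg 0.26 and 0.25, and in Treg against Th0 -0.26 and -0.25. Rps19 and Rps26 lay inside the band of the bright genes, with ratios of 0.25 and 0.35 in exFoxp3Th17 against Th17.

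Other bright genes were more scattered. The 287 genes outside the group with a mean log2 signal of 11 or more had a standard deviation of 0.48 in exFoxp3Th17 against Th17, where the 36 members had 0.14, and of 0.60 in exFoxp3Th17 against Treg, where the members had 0.17. Their medians were 0.01, -0.13, -0.02 and -0.08 in the comparisons as ordered above.

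Nearer to the members' level, the picture depended on the comparison. The 34 other genes with a mean log2 signal of 12 or more (a signal of 4096), without TOP genes of the list below, had a median of -0.24 in Th17 against Th0 and -0.17 in Treg against Th0, where the 33 members of that level had -0.26 in both. In exFoxp3Th17 against Treg their median was 0.02, with a standard deviation of 0.33, and in exFoxp3Th17 against Th17 it was 0.11, with a standard deviation of 0.20. Of these 34 genes, 14 had Th0 and exFoxp3Th17 both above Th17 and Treg. With the TOP genes kept in, 21 of 42 had this order. The part of signal level in the members' differences was not tested.

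**Figure D3:**
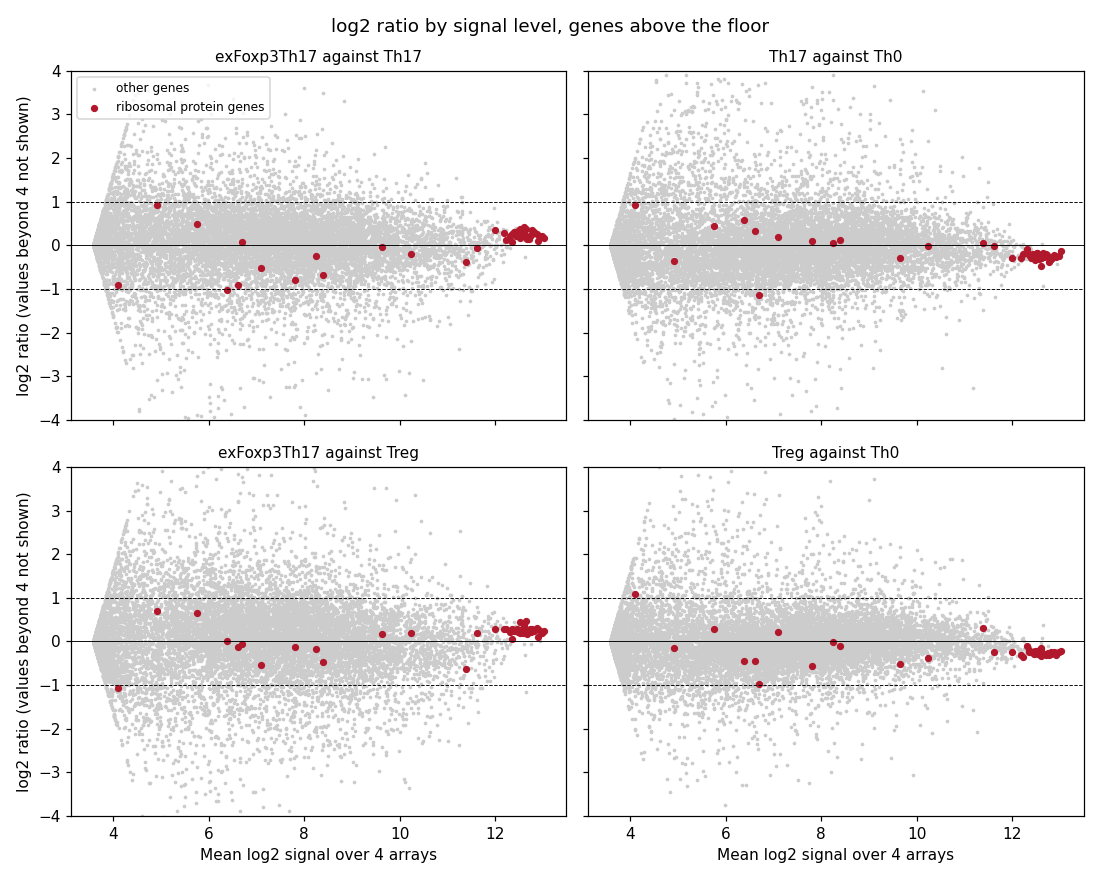
Each panel plots the log2 ratio of 1 comparison against the mean log2 signal over the 4 arrays, with the ribosomal protein genes in red, all other genes above the floor in grey, and dashed lines at 2-fold. At the deposited scaling the red cluster at the right lies above 0 in both comparisons of exFoxp3Th17 and below 0 in both comparisons with Th0, while its medians lay between -0.02 and 0.03 under quantile normalization.

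**Figure D4:**
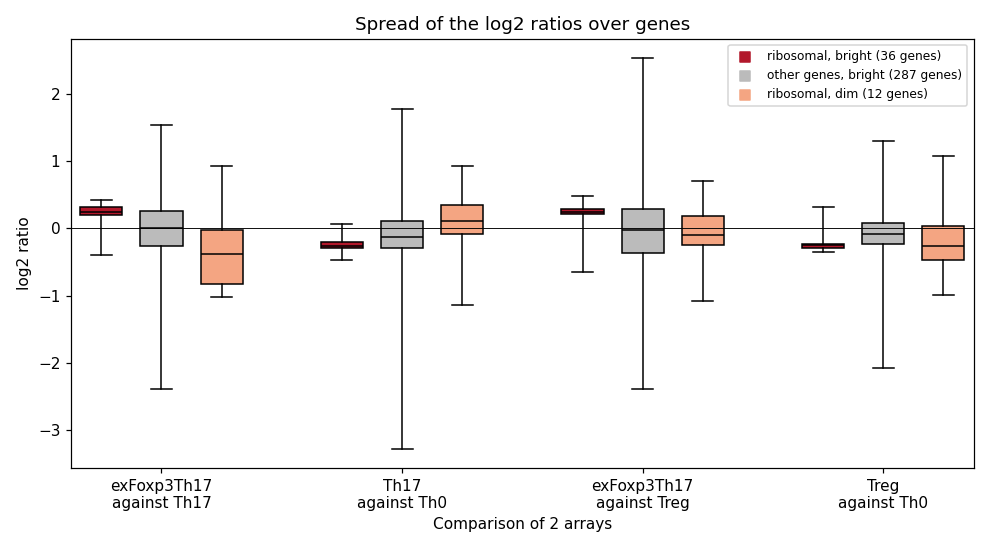
Boxes give the quartiles and median of the log2 ratio over genes, and whiskers the full range, for the 36 bright members, the 287 other bright genes and the 12 dim members. The bright members have the narrowest boxes in every comparison, and their medians of -0.26 to 0.25 apply to the deposited scaling, since under quantile normalization they moved to near 0.

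Probe sets other than the chosen ones showed how far the order of the bright block depended on the choice of probe set. They were read on the same arrays at the same scaling, so they are not separate observations of that order. A difference between whole arrays at the bright end would reach them too, and its part was not tested. 18 of the bright genes had more than 1 bright single-gene probe set, and in 13 of these every bright probe set placed Th0 and exFoxp3Th17 above Th17 and Treg. The exceptions were Rpl13a, Rpl27, Rpl7 and Rps20, each with at least 1 bright probe set out of that order, and Rps27l, with none in it. Of the 34 further bright single-gene probe sets, 26 had the order. Without cross-matching probe sets, 26 of the 32 bright genes still read had it. Among 79 bright probe sets that list several genes and 1 or more ribosomal protein symbols, 78 had the order, with a median log2 ratio of 0.25 in exFoxp3Th17 against Th17. These probe sets name no gene here.

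Rps27l departed from the block. It is a near copy of Rps27 and a transcriptional target of p53. Its signals were 2656 (Th0), 2767 (Th17), 2112 (exFoxp3Th17) and 3300 (Treg). It was thus highest in Treg and lowest in exFoxp3Th17, the reverse of the bright block for both arrays of Foxp3+ origin. The log2 ratio of exFoxp3Th17 to Treg was -0.64, and 2 further probe sets gave -0.70 and -0.69. Against Th17 the ratio was -0.39, and it was -0.32 under quantile normalization.

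Among 7 genes of the p53 arm above the floor, 1 was lower and none higher by 2-fold in exFoxp3Th17 than in Th17, against 7.27% of all genes lower; 6 were within 2-fold. Cdkn1a, the cell cycle inhibitor that p53 induces, was the lower one, at 74.9 (Th0), 726.7 (Th17), 76.9 (exFoxp3Th17) and 433.7 (Treg). Mdm2, the p53 ubiquitin ligase that free Rpl5 and Rpl11 bind, was at 200.1, 281.9, 207.2 and 249.7. Ccng1 and Zmat3, other p53 targets, were highest in exFoxp3Th17 (2232 and 284.1). The p53 targets thus did not share 1 order.

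Rpl22l1, the paralog that is known to substitute for Rpl22 when the latter is lost, also differed from the block. Its signals were 3319 (Th0), 3305 (Th17), 3189 (exFoxp3Th17) and 2809 (Treg). The first 3 arrays lay close together, with a log2 ratio of -0.01 for Th17 against Th0, and Treg lay below them. The ratio of exFoxp3Th17 to Th17 was -0.05, where Rpl22 had 0.43.

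The 2 X-linked members were Rps4x and Rpl39. The exFoxp3Th17 array had a signal of 3766 for Xist, which coats and silences the inactive X, while the other arrays had 7.41 to 10.8, and the reverse for the Y-linked Eif2s3y (4.66 against 654.5 to 875.8). Rps4x was at 6777 (Th0), 5545 (Th17), 6911 (exFoxp3Th17) and 5824 (Treg), a profile inside the autosomal block. Rpl39 was dim, at 40.8, 55.5, 77.8 and 49.5, and highest in exFoxp3Th17, with a log2 ratio of 0.49 against Th17. The part of sex in these values was not tested.

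12 members were measured by dim probe sets, and 1 of the 12 had Th0 and exFoxp3Th17 both above the others. Their median log2 ratio was -0.39 in exFoxp3Th17 against Th17, 0.11 in Th17 against Th0 and -0.10 in exFoxp3Th17 against Treg, each opposite in sign to the bright genes at the deposited scaling. In Treg against Th0 it was -0.26, with 9 of 12 below 0, the same direction as the bright genes (-0.25). 9 of the 14 dim or undetected members also have a bright probe set that lists several genes. The 16 dim further probe sets of member genes came from 12 genes. In exFoxp3Th17 against Th17, 15 of them were lower in exFoxp3Th17 and 1 was higher, with a median of -0.42. Most of these 12 genes are in the bright block by their chosen probe set, which was higher in exFoxp3Th17. Rps10, for example, was at -0.87 by its dim probe set and 0.21 by its chosen one. The 16 had medians of 0.47 in Th17 against Th0, -0.004 in exFoxp3Th17 against Treg and 0 in Treg against Th0.

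Rps27, a zinc-finger protein of the small subunit, had signals of 88.8 (Th0), 131.9 (Th17), 65.1 (exFoxp3Th17) and 64.8 (Treg). By this dim probe set, its only single-gene one, Rps27 was 2.03-fold lower in exFoxp3Th17 than in Th17, just past the threshold. Rpl12, a stalk-base protein, was at 110.5, 138.0, 73.8 and 80.5, and with a log2 ratio of -0.90 it stayed within 2-fold. Rpl14 (-0.80) and Rps25 (-0.67) had the same highest and lowest arrays, Th17 and exFoxp3Th17.

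Rpl27a was at 179.7 (Th0), 81.9 (Th17), 86.3 (exFoxp3Th17) and 90.7 (Treg). Th0 stood apart, 2.19-fold above Th17 and 1.98-fold above Treg, on either side of the threshold. With the mean of its probe sets, or with a several-gene probe set in its place, it was no longer past 2-fold against Th17.

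Rps4l was at 12.08 (Th0), 22.9 (Th17), 11.5 (exFoxp3Th17) and 25.5 (Treg). Both lower arrays were below the floor, so it was at least 2.11-fold higher in Treg than in exFoxp3Th17 or Th0, and these calls were lost at 2 times the floor. Rpl39l, a paralog of Rpl39 best known from male germ cells, was at 30.0, 23.3, 44.2 and 27.2, highest in exFoxp3Th17 with a log2 ratio of 0.92 against Th17.

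Rps6, the subunit protein phosphorylated by the S6 kinases, was at 973.4 (Th0), 797.4 (Th17), 769.8 (exFoxp3Th17) and 681.4 (Treg). Rpl37 was at 1339, 1330, 1167 and 1026. For both, Th0 was the highest array and Treg the lowest. Rpl7l1 was at 313.8, 327.3, 274.9 and 309.8, and Rps19bp1 at 134.0, 153.8, 107.3 and 155.0, both lowest in exFoxp3Th17.

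Most of the other transcripts listed as TOP genes differed in the same direction as the bright ribosomal protein genes at the deposited scaling. The list includes Fau, which encodes a ribosomal protein as part of a fusion and had the order of the bright block. Of 18 listed genes above the floor, 16 of them with a mean log2 signal of 11 or more, 12 had Th0 and exFoxp3Th17 both above Th17 and Treg. This order held for 21.7% of all genes above the floor and for 34.7% of genes at that level. The median log2 ratios of the 18 genes were 0.24, -0.21, 0.33 and -0.28 in the comparisons in the order above, and 0.10, -0.02, 0.22 and -0.10 under quantile normalization. Eef1a1, the factor that brings aminoacyl-tRNA to the ribosome, was at 6893 (Th0), 5474 (Th17), 6882 (exFoxp3Th17) and 5842 (Treg). Pabpc1, the poly(A)-binding protein, was at 6440, 5295, 6506 and 5126, and Tpt1 at 6014, 4827, 6315 and 5095. All 3 show the order of the bright block. Eif4b, an initiation factor that helps unwind the 5' end of messengers, was the 1 gene of the 18 past 2-fold in any comparison: it was 2.25-fold higher in exFoxp3Th17 (1881) than in Treg (834.2), against 11.3% of all genes higher. Vim, a filament protein whose messenger is also listed among TOP genes, went the other way (5442 in exFoxp3Th17, 6788 in Treg).

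Of 28 ribosomal protein chaperones and assembly factors above the floor, 8 were lower and none higher by 2-fold in exFoxp3Th17 than in Th17, against 7.27% of all genes lower. Their median log2 ratio was -0.62, and -0.67 under quantile normalization. Bysl, which matures the small subunit, was at 131.2 (Th0), 191.9 (Th17), 64.7 (exFoxp3Th17) and 154.2 (Treg). Rrs1, which helps to bring Rpl5 and Rpl11 into the large subunit, was at 517.4, 858.4, 330.5 and 732.6, and Grwd1, a chaperone of Rpl3, at 85.3, 80.9, 28.1 and 87.5. All 3 were lowest in exFoxp3Th17. In 17 of the 28 genes both Th17 and Treg were above both Th0 and exFoxp3Th17, an order held by 14.3% of all genes above the floor, and 4 of the 28 had the order of the bright ribosomal protein genes. Wdr12, of the PeBoW complex, had the opposite profile, at 461.6, 282.9, 528.0 and 206.4.

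A list of 21 genes held the cytosolic aminoacyl-tRNA synthetases, which charge tRNAs, and their complex partners Aimp1 and Aimp2. In exFoxp3Th17 against Th17, 3 were lower by 2-fold (Cars, Iars and Aimp2) and none higher, with a median of -0.69. Among all genes 7.27% were lower and 7.48% higher. In 16 of the 21 both Th17 and Treg were above Th0 and exFoxp3Th17, against 14.3% of all genes. The 76 mitochondrial ribosomal protein genes stayed mostly within 2-fold in exFoxp3Th17 against Th17, with 2 higher, 2 lower and 72 neither (median -0.16), a smaller share in each direction than among all genes (7.48% and 7.27%). Mrps6 (949.8 in exFoxp3Th17, 362.1 in Th17) and Mrps5 (812.3 and 247.0) were the higher ones. Initiation factors had 2 of 36 lower, Eif1a and the cap-binding Eif4e, and none higher (median -0.07), a share lower near the 7.27% of all genes. Of 10 elongation and release factors, 1 was lower, Eef1e1, a subunit of the synthetase complex, and none was higher (median 0.10), against the same 7.27%.

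Among 15 regulators of TOP translation and S6 kinases, 2 were lower and none higher by 2-fold in exFoxp3Th17 than in Th17, with a median of -0.05, against 7.27% of all genes lower and 7.48% higher. They were Eif4ebp1 and Larp1b, a relative of Larp1, which was at 217.1 (Th0), 148.0 (Th17), 71.7 (exFoxp3Th17) and 469.0 (Treg). Eif4ebp1, which blocks cap-dependent translation when unphosphorylated, was at 289.2 (Th0), 1196 (Th17), 256.5 (exFoxp3Th17) and 626.4 (Treg). Larp1 was at 555.0, 640.0, 328.3 and 641.5, lowest in exFoxp3Th17 with a log2 ratio of -0.96 against Th17, just inside 2-fold. Eef2k, the kinase that slows elongation, was at 41.7, 113.7, 73.1 and 142.2.

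The identity of the cells was checked on fixed markers. The T cell genes Cd3e, Cd3g, Cd4 and Lat were above the floor on all 4 arrays, with summed signals of 5139 (Th0), 4105 (Th17), 5382 (exFoxp3Th17) and 3714 (Treg). This sum was highest on the same pair of arrays as the bright ribosomal protein genes, and its part in their order was not tested. Foxp3 was at 584.9 in Treg and at 4.25 to 8.03 elsewhere, and Il17a was below the floor on all 4 arrays. Of 3 B cell markers 1 was above the floor, Cd79b (55.6 in Treg, 19.3 in exFoxp3Th17), with summed signals of 15.8 to 59.9, and Cd79a and Ms4a1 were below it throughout. Of 5 myeloid markers 1 was above it, Csf1r (12.6 to 23.4), with summed signals of 26.8 to 49.9. The CD8 markers Cd8a and Cd8b1 summed to 66.0 to 97.0, and the measured NK cell and erythroid markers were below the floor. The part of other cells in the ribosomal protein values was not tested.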

How the data were processed

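The authors deposited linear signal intensities, 1 value per probe set and array. The submitters' processing notes name MAS5, with no version. On every array the mean was 100 once 2% of probe sets at either end were set aside, and no further scaling was applied. The table holds 45101 probe sets, 64 of them controls. Of the others, 34945 have 1 platform symbol, 932 several and 9160 none here. Values under 12.1 were set to it before log2, and a gene was called at 2-fold or more with the higher array above that floor; 11769 genes passed. Symbols were updated through the RefSeq table. Named genes were called members, the 5 highest and lowest ratios per comparison, the 5 brightest and dimmest, and members of fixed role, with up to 3 called genes per list; Rps3, Rps7, Rps9, Rps15, Rps26 and the list genes that were not called were added after their values were seen. Members and lists were chosen with earlier results of these data known. Each population has 1 array, which limits the precision, and no test was possible. Alternatives covered floor, scaling, probe set and threshold. Python 3.11.15, numpy 2.4.6 and pandas 2.3.3 were used.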

Additional observations from a re-analysis of the deposited data

Results flagged for a closer look

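The bright ribosomal protein genes differed in opposite directions between these arrays in cells of the 2 origins. The median log2 ratio over the 36 bright genes was -0.26 in Th17 against Th0 (naive origin) and 0.25 in exFoxp3Th17 against Treg (Foxp3+ origin). The difference between these was not tested, the control cultures (Th0 conditions or IL-2) and the sort gates differed, and Xist was at 3766 in exFoxp3Th17 and 10.8 in Treg. The 12 dim members had medians of 0.11 and -0.10, and under quantile normalization the bright medians were 0.00 and 0.03.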

How the results depend on the processing

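The choice that mattered most was the scaling. Under quantile normalization the median log2 ratio of the measured members was -0.0039 in exFoxp3Th17 against Th17, 0.015 in Th17 against Th0, 0.017 in exFoxp3Th17 against Treg and -0.023 in Treg against Th0. By construction this method gives each rank the same value on every array, and most of the top ranks are ribosomal probe sets. With equal medians of expressed probe sets the median in exFoxp3Th17 against Treg was 0.142. In the other 55 of 60 alternatives the medians moved by 0.1 or less and kept their sign, but with the mean of probe sets they came to 0.126 in exFoxp3Th17 against Th17 and -0.160 in Th17 against Th0, from 0.219 and -0.247.

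Counts of members past 2-fold were 1 in each comparison, so small shifts moved them. In exFoxp3Th17 against Th17 the count was 0 with the floor as a pseudocount and at 3-fold, 2 without a floor and 6 at 1.5-fold. In Th17 against Th0 it was 0 with the mean of probe sets, at 3-fold and with several-gene probe sets added, 3 without a floor and 2 at 1.5-fold. In exFoxp3Th17 against Treg it was 0 at 2 and 4 times the floor, with the pseudocount, at 3-fold and without Rps19bp1, Rpl7l1 and Rps4l, and 4 at 1.5-fold. In Treg against Th0 it was 0 at the same 5 settings and 2 without a floor, at 1.5-fold and without cross-matching probe sets. Among bright members it was 0 in all 4 comparisons. Quantile normalization left the count of measured members at 1 in each comparison. The cause of the shifts in the counts was not tested. Bright members only, several-gene probe sets, the 3 genes left out and scaling on other bright genes were chosen after seeing the data. No paired analysis was possible because each group has 1 array; for the same reason no array could be left out.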
